A study of Mus musculus with 18 samples.

Results

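Treg cells of the brown adipose tissue (BAT) of cold-exposed mice were compared with those of warm-acclimatised mice on 6 of the 18 arrays of the series. The 3 cold arrays held RNA of mice kept at 12 °C for 2 days, and the 3 warm arrays held RNA of mice kept at 30 °C. The arrays were chosen by their labels for tissue, temperature and cell type, not by any measured value. The question was which transcripts of BAT Treg cells differ when the tissue is asked to make heat.

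Regulatory T (Treg) cells are CD4+ T cells that carry the transcription factor Foxp3 and restrain immune responses. Those that reside in adipose tissue are known from visceral fat, where they are tied to inflammation and insulin sensitivity. Brown fat burns fuel to make heat through uncoupled respiration, and it is nearly idle at 30 °C, close to the temperature at which a mouse needs no extra heat, whereas a colder room activates it through the sympathetic nerves. Conventional CD4+ T cells (Tconv), which lack Foxp3, come from the same tissue and meet the same temperature, so they give a second cell type in which the response to cold can be read.

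Per the labels, all mice were on a C57BL/6 background with the genotype Foxp3-GFP-DTR-CD90.1, and Treg cells were CD4+CD25+Foxp3+. This genotype names GFP, the diphtheria toxin receptor and the surface protein CD90.1 beside Foxp3, and does not say which cells carry CD90.1. The study's methods instead name wild-type C57Bl6 females bought at 8 weeks of age, held at 30 °C for 2 weeks and, for the cold group, then at 12 °C for 2 days, and a sort on CD4 and CD25. The values analysed here do not settle which mice were used. Organs were pooled before sorting, so each array stands for a pool of mice, and p-values measure the spread between 3 pools or arrays and not between single mice. From each sample 2.5 ng of RNA was amplified before labelling. The other 12 arrays held BAT Tconv cells of both temperatures and splenic Treg and Tconv cells of mice kept at 30 °C, 3 arrays each.

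Signals were measured on the MouseWG-6 v2.0 Expression BeadChip of Illumina, on which each probe sits on many beads and its signal is the mean brightness of those beads. Each BeadChip held 1 tissue at 1 temperature, with 3 Treg and 3 Tconv arrays, so the cold and the warm Treg arrays lay on different BeadChips, and BeadChip and temperature cannot be told apart. The file names no gene for any of its probes. Foxp3, other markers and pathways were therefore not analysed here, and the results below are for probes and for sets of probes. Because the RNA came from sorted pools, a higher level per cell cannot be told apart from a larger share of cells that carry the transcript.

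The cell type on the label was checked with probes from the spleen arrays, none of which is a BAT array. Of 103 probes called higher in splenic Treg than in splenic Tconv cells, 73 were higher in Treg than in Tconv cells of warm BAT, against 45.3% of all tested probes. In cold BAT 68 of the 103 were higher in Treg cells, against 39.8% of all tested probes. Of 59 probes called lower in splenic Treg cells, 44 were lower in Treg cells of warm BAT (54.7% of all tested probes) and 43 in those of cold BAT (60.2%). The sorted BAT Treg cells of both temperatures thus lay on the Treg side of this splenic difference, as a count and without a test.

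The 6 arrays were of similar quality with cold replicate 1 standing somewhat apart. A probe counted as detected on an array where the deposited detection p-value was under 0.05, and 37.1% to 41.7% of the regular probes were detected on the cold arrays and 38.5% to 42.2% on the warm arrays. This threshold was loose, because 18.7% to 24.5% of the negative control probes, which match no mouse transcript, passed it too on these 6 arrays. The share of regular probes above the 95th percentile of the negative controls was 25.4% on cold replicate 1, 19.0% on cold replicate 2 and 15.7% on cold replicate 3, and 16.8% to 19.2% on the warm arrays. Cold replicate 1 also had the lowest median signal, 105 units, against 124 to 136 units on the other 5 arrays.

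Positive control probes were dimmer on the cold than on the warm arrays. Before normalization, the biotin controls were 0.878 times as bright on the cold as on the warm Treg arrays, and the hybridisation controls 0.887, 0.924 and 0.937 times as bright at their high, medium and low input. The 14 housekeeping probes averaged 668 to 784 units on the cold and 765 to 885 units on the warm arrays, 0.881 times as bright, with overlap between the groups. The negative controls were 0.918 times as bright. The Tconv arrays of the same BeadChips gave ratios of 0.891 for biotin, 0.817 for the housekeeping probes and 1.03 for the negative controls. The arrays were normalized to the same distribution of signals before the comparison, and the part of the BeadChip in any single difference was not tested.

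Cold arrays were no more like each other than like warm arrays. Across the 17395 tested probes, Pearson's correlation of log2 signals was 0.861 to 0.917 between warm arrays, 0.810 to 0.891 between cold arrays and 0.803 to 0.904 between a warm and a cold array. The highest of the 9 mixed correlations, 0.904 between warm replicate 2 and cold replicate 2, was above all 3 correlations between cold arrays. On average 9.34% of the probes were over 2-fold apart between warm arrays, 12.1% between cold arrays and 11.2% between a warm and a cold array. Cold replicate 3 was the least like the other cold arrays, with correlations of 0.810 and 0.842. These are correlations across probes, which are not independent.

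**Figure D1:**
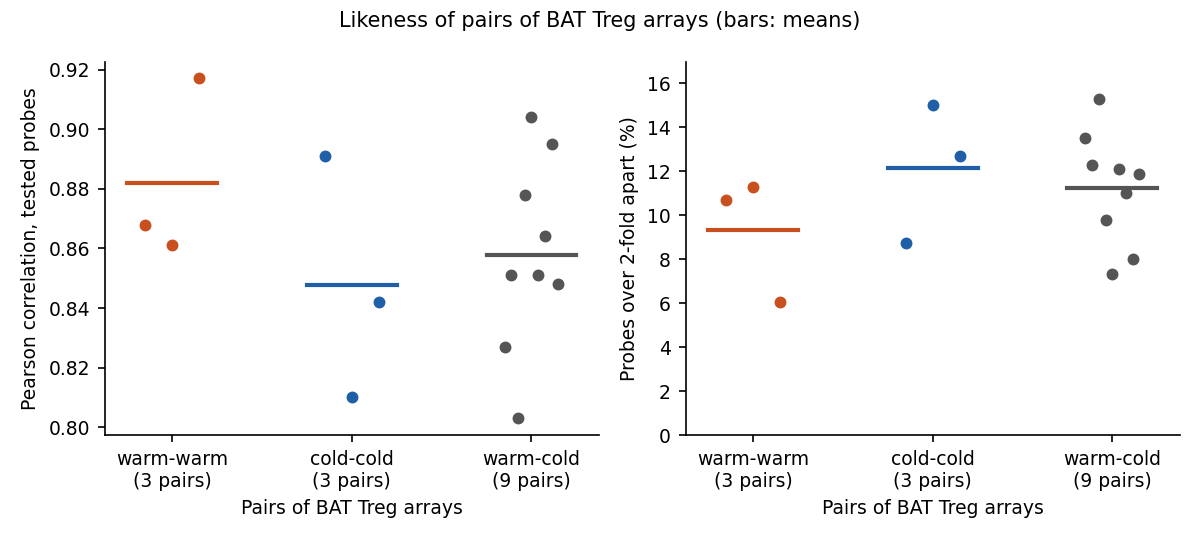
Each point is a pair of BAT Treg arrays, with the Pearson correlation of log2 signals over the tested probes on the left axis and the percentage of probes over 2-fold apart on the right axis. Bars are means, and the 9 warm-cold pairs cover a range from 0.803 to 0.904 that takes in all 3 cold-cold pairs and 2 of the 3 warm-warm pairs.

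Few probes differed between cold and warm BAT Treg cells beyond the spread between arrays, and most of those were higher in the cold. A probe was called when it differed by over 2-fold with an adjusted p-value below 0.05 in the limma fit of all 18 arrays. In this way 13 probes were called higher in cold Treg cells, 0.0747% of the tested probes. Only 2 probes were called lower, 0.0115%, so that 15 probes or 0.0862% were called in all. Another 5 probes had an adjusted p-value under 0.05 in the same limma fit at less than 2-fold, 4 higher and 1 lower in the cold, with log2 differences between 0.79 and 0.98 in size. By unadjusted p-values of that fit under 0.05, 563 probes were higher (3.24%) and 478 lower (2.75%), 5.98% of the tested probes together.

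Fold changes alone gave no such tilt towards the cold. More than 2-fold, without any test, 254 probes were higher (1.46%) and 253 lower (1.45%) in cold Treg cells. Of these, 136 higher probes (0.782% of those tested) and 141 lower probes (0.811%) had no overlap between the 3 cold and the 3 warm arrays. At any fold, 915 probes (5.26%) lay above all warm arrays on every cold array and 1416 (8.14%) below them. The 492 probes over 2-fold that were not called include some with the largest differences of all. One averaged 3.29 log2 units higher in the cold, the largest difference of any tested probe, with log2 signals of 5.37, 5.42 and 5.61 on the warm and 10.26, 9.25 and 6.76 on the cold arrays. Its cold arrays spanned more than 3 log2 units, its standard error was 0.72, and its adjusted p-value in the limma fit was 0.156. The largest fall, by 2.38 log2 units, came from a probe at 8.72, 8.61 and 7.87 on the warm and 5.66, 7.55 and 4.85 on the cold arrays, with an adjusted p-value of 0.706 in the limma fit.

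**Figure D2:**
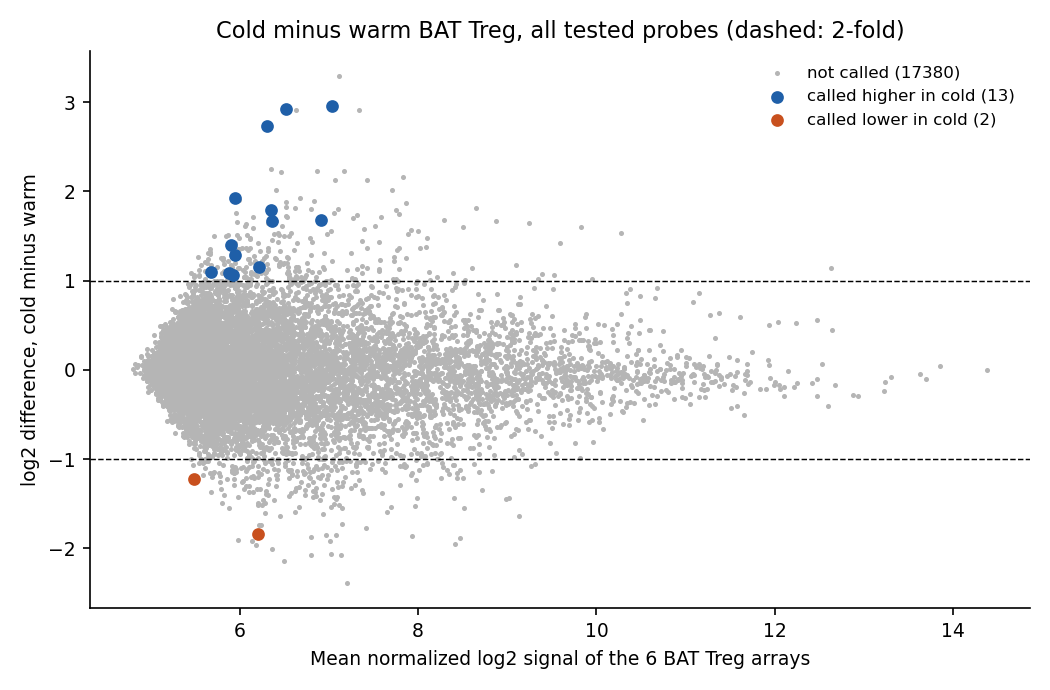
Every tested probe is plotted by its mean normalized log2 signal over the 6 BAT Treg arrays (horizontal axis) and its log2 difference, cold minus warm (vertical axis), with dashed lines at 2-fold. The 13 probes called higher (blue) and 2 called lower (orange) have a mean signal below 8, while the brighter probes not called (grey) lie mostly within the lines.

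The probe with the strongest statistical support was ILMN_1227666, which was at background in warm Treg cells and clearly above it in cold ones. Its log2 signals were 4.94, 4.91 and 4.98 on the warm arrays and 7.01, 7.55 and 8.46 on the cold arrays. It was detected on all 3 cold and on none of the 3 warm arrays, and every cold value lay 2.03 log2 units or more above every warm value. The difference was 2.73 log2 units (SE 0.28, 95% confidence interval 2.12 to 3.34, adjusted p = 0.00207 by limma). Since the warm signal was not above background, the change is given as a bound, at least 5.97-fold higher in the cold. In deposited units before normalization, the probe stood at 280.3 ± 8.4, 356.5 ± 11.7 and 518.5 ± 22.1 on the cold arrays, where the error is the standard error over its beads, and at 115.5, 119.6 and 129.3 on the warm arrays. In BAT Tconv cells it averaged 4.97 in the warm and 4.96 in the cold, and it was detected on none of those 6 arrays and on 1 of 6 spleen arrays. The probe had passed the detection filter only through the cold Treg group, which favours few detections elsewhere.

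ILMN_3160750 was the second of the probes that rose, with a smaller but very even change. Its log2 signals were 4.80, 5.53 and 5.29 on the warm and 6.52, 6.55 and 6.76 on the cold arrays. All cold values were above all warm values, and the 3 cold arrays lay close together. The difference was 1.40 log2 units (SE 0.16, adjusted p = 0.00342 by limma). It was detected on 2 of the 3 warm arrays, and with the undetected one set to the lowest detected signal the change was at least 2.46-fold. No BAT Tconv array and no spleen array detected it, and its mean in BAT Tconv cells was 4.90 in the warm and 4.91 in the cold. This probe too had passed the detection filter only through the cold Treg group, which favours few detections elsewhere.

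Next in order of moderated t came the probe with the largest difference of the 13, which stood at 5.31, 6.04 and 5.33 on the warm and at 9.20, 8.22 and 8.14 on the cold arrays. This was a rise of 2.96 log2 units (SE 0.35, adjusted p = 0.00342 by limma), or 7.77-fold, and the probe was detected on all 6 arrays. It was the brightest of the 13 in cold Treg cells, with a mean of 8.52.

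The remaining probes called higher were mostly faint in warm Treg cells. Over the 13, the mean log2 signal ran from 4.94 to 6.08 in warm cells (median 5.34) and from 6.22 to 8.52 in cold cells (median 6.92), where the weakest detected signal of an array was about 5.1. Their differences ran from 1.06 to 2.96 log2 units, with a median of 1.67. None of the 13 overlapped between the groups, with gaps of 0.50 to 2.10 log2 units between the lowest cold and the highest warm array. Of all tested probes 0.782% were over 2-fold higher without overlap, and a call for a difference between these arrays favours such a gap. In warm cells, 2 of the 13 were detected on no array, 6 on 1 or 2 arrays and 5 on all 3 arrays. For 11 of the 13, each cold Treg array was above all 15 other arrays of the series, which held for 0.811% of the tested probes, but the 13 had been called for being high in cold Treg cells and 4 of them had passed the detection filter only through that group. By detection, 6 of the 13 were found on none of the 6 spleen arrays, and the share of all tested probes was not calculated. The spleen arrays detected 27.8% to 35.1% of the regular probes. The choice of the 13 also favours such a count, so it does not show probes particular to BAT.

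The evenness of the cold arrays varied from probe to probe. A probe sixth in rank rose by 2.92 log2 units, nearly as far as the strongest, but stood at 8.91 and 8.52 on cold replicates 1 and 2 and at 6.52 on replicate 3, against 5.06, 4.94 and 5.19 on the warm arrays. Its standard error was 0.45 and its adjusted p-value 0.0269 by limma. The SD was 1.28 over its cold and 0.12 over its warm arrays, while the standard error was drawn from all 6 groups. A probe seventh in rank rose only by 1.16 log2 units with values of 6.78, 6.90 and 6.70 on the cold arrays and 5.94, 5.21 and 5.76 on the warm arrays. Its standard error was 0.18 and its adjusted p-value 0.0297 by limma. The first of these probes was far higher on 2 of the 3 cold arrays than on the other, and the second was at nearly 1 level on all 3.

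The 2 probes that fell were ILMN_1232642 and ILMN_2680038. ILMN_1232642 stood at 5.84, 6.47 and 5.99 on the warm and at 4.99, 4.79 and 4.87 on the cold arrays. It was detected on every warm and no cold array, a fall of 1.22 log2 units (SE 0.15, adjusted p = 0.00453 by limma) and at least 2.01-fold. None of the 12 arrays of BAT Tconv and splenic cells detected it, so that warm BAT Treg was the only group of the 6 in which it was above background.

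ILMN_2680038 stood at 7.83, 7.20 and 6.35 on the warm and at 5.86, 5.05 and 4.93 on the cold arrays. The groups were separated by a gap of 0.48 log2 units, between warm replicate 3 and cold replicate 1. The difference was -1.84 log2 units (SE 0.31, adjusted p = 0.0363 by limma), and with 1 cold array detected the fall was at least 3.41-fold. For both probes, every warm Treg array was above all 15 other arrays (0.402% of the tested probes), and both had passed the detection filter only through the warm Treg group.

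**Figure D3:**
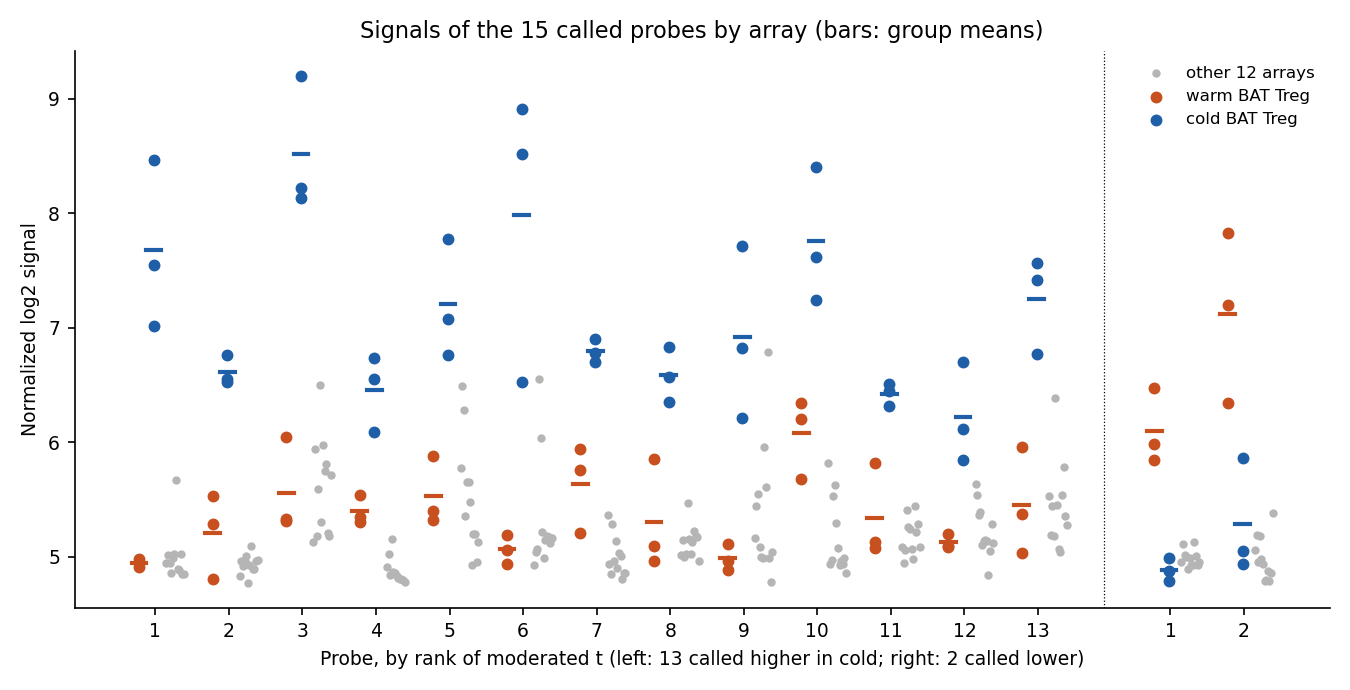
Normalized log2 signals (vertical axis) of the 13 probes called higher and the 2 called lower in cold BAT Treg cells, ordered by moderated t (horizontal axis), with warm Treg arrays in orange, cold Treg arrays in blue, the other 12 arrays in grey and bars at the Treg group means. The cold and warm points never overlap, which the choice of probes by their difference between these arrays favours. In 11 of the 13 probes on the left the blue points are above every grey one.

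Bead numbers give a second measure of the error of these signals. The 15 called probes were read from 17 to 65 beads an array, and before normalization and background correction the gap between the groups was above 0 for 14 of them and over 2 standard errors of the bead means for 13. These probes had been called for a gap between the groups, so the values only describe it. The median gap was 4.22 such standard errors, and it was the largest, 14.9, for ILMN_1227666. For 1 probe, with a gap of -0.03 standard errors, the deposited signals of the groups met and the separation came only after normalization. Over all tested probes the error of the bead mean had a median of 4.49%, while the coefficient of variation between arrays, of signals quantile-normalized without background correction, had a median of 10.7% in cold and 9.25% in warm Treg cells. The latter holds the bead error as well as the spread between samples.

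Among the brightest probes most differed little between cold and warm Treg cells. Of 1401 probes with a mean log2 signal over 8, 1193 (85.1%, against 87.96% of all tested probes) were within 1.5-fold. Of the 1401, 23 were over 2-fold higher and 29 over 2-fold lower in the cold. None was called, where 0.0862% of all tested probes were. At an unadjusted p-value under 0.05 in the limma fit stood 78 (5.57%, against 5.98% of all tested probes). The brightest to differ by over 2-fold stood at 11.92, 12.13 and 12.13 on the warm and 13.61, 13.47 and 12.52 on the cold arrays. Its difference of 1.14 log2 units had a standard error of 0.36 and an adjusted p-value of 0.459 by limma, and its Tconv counterpart was 0.62. The closest to a call among them rose by 1.53 log2 units, from 8.81, 9.80 and 9.93 on the warm to 11.63, 10.95 and 10.54 on the cold arrays, with an adjusted p-value of 0.0855 by limma. In that probe warm replicate 1 was about 1 log2 unit below the other warm arrays, and the splenic Treg arrays averaged 10.42, within the range of the BAT Treg arrays.

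Most of the called probes had a mean log2 signal between 5.5 and 7, and 0.0862% of all tested probes were called. In the dimmest bin, with a mean log2 signal over the 6 arrays of at most 5.5, 6538 probes held 3 over 2-fold higher and 3 lower, and 1 call. From 5.5 to 6, 4844 probes held 60 higher and 35 lower, with 6 called higher. From 6 to 7, 3316 probes held 121 higher and 121 lower, with 6 called higher and 1 called lower, and from 7 to 8, 1296 probes held 47 higher and 65 lower, with 1 called higher. The median standard error of a difference rose from 0.19 in the dimmest bin to 0.51 between 7 and 8 and fell to 0.17 above 10.

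The precision of the 3 arrays per group set what could be called. The median standard error of the cold minus warm difference was 0.286 log2 units, and at this error a probe needed 1.61 log2 units, or 3.06-fold, to reach an adjusted p-value of 0.05 in the limma fit. At the quartiles of the standard error the need was 2.17-fold and 5.41-fold. The median spread within a group was 0.263 log2 units (SD) in cold and 0.228 in warm Treg cells, against 0.220 to 0.308 in the other 4 groups. Over all tested probes the median size of the difference was 0.19 log2 units, and 87.96% were within 1.5-fold. With 3 arrays against 3, an exact two-sided permutation test of a single probe cannot go below 0.1.

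Switching between detected and undetected was no more frequent among regular probes than among negative controls. Of 45267 regular probes, 128 (0.283%) were detected on all cold and no warm Treg arrays and 149 (0.329%) on all warm and no cold arrays. Of the 936 negative control probes, which have nothing to switch, 3 (0.321%) and 7 (0.748%) did the same. The 128 gained probes included 2 of the 13 called higher, and the 149 lost ones 1 of the 2 called lower.

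The number of calls rested heavily on single arrays, above all on cold replicate 3. Without it the same fit called 81 probes, 78 of them higher in the cold, which took in all 13 called higher with every array. Without cold replicate 2 the count was 30, of which 7 were among the 15. Without cold replicate 1, warm replicate 1, warm replicate 2 or warm replicate 3 it was 10, 11, 14 and 8, with 5, 6, 6 and 7 of the 15 among them. In all 6 of these fits 3 of the 13 higher probes were called, namely ILMN_1227666, ILMN_3160750 and the probe with the largest difference, and so was ILMN_1232642 of the 2 lower probes.

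**Figure D4:**
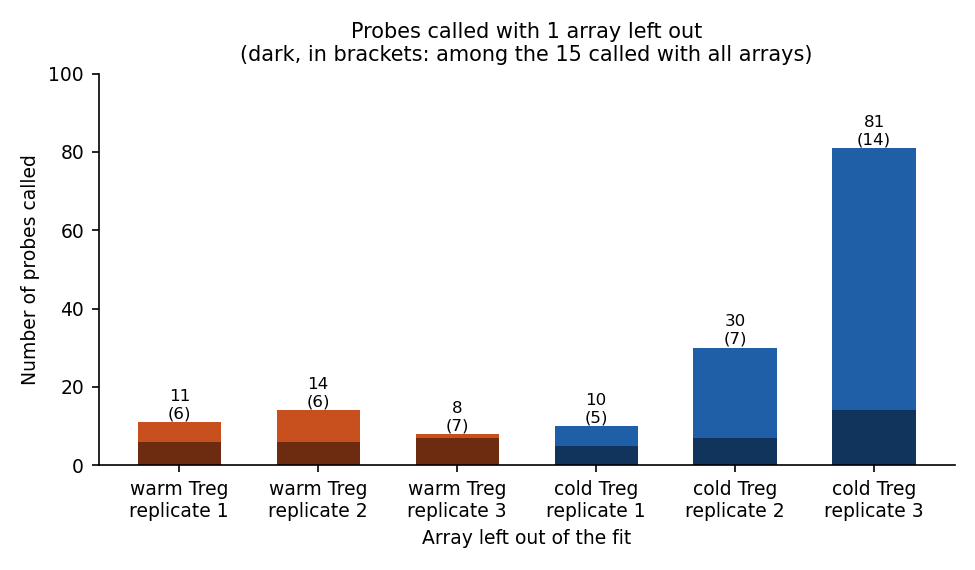
Bars give the number of probes called (vertical axis) in a fit without the BAT Treg array named below each bar, with warm arrays in orange and cold arrays in blue. The dark lower part, with its number in brackets, counts those among the 15 called with every array, and the bar without cold replicate 3 reaches 81 with 14 of the 15.

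The values of the array left out were set beside the calls of the other arrays. All 18 arrays had been normalized and filtered together, and the warm arrays are shared, so the array left out was not fully apart from the choice. Of the 78 probes called higher without cold replicate 3, 17 had passed the detection filter only through the cold Treg group, which requires detection on that array, and were set aside. In cold replicate 3, 35 of the other 61 were above the warm mean (46.7% of the 16786 probes that passed through another group), 25 were above all 3 warm arrays (26.8%) and 9 were over 2-fold above the warm mean (4.74%). Their median in that array was 0.192 log2 units, while the 78 had a median of 1.62 in the 5 arrays of the fit that chose them. Over all 78 probes the mean log2 signal was 7.83 and 7.47 on cold replicates 1 and 2, 6.12 on cold replicate 3, and 5.76 to 5.89 on the warm arrays. In these probes cold replicate 3 was nearer to the warm arrays than to the other cold ones. They had been chosen without it for being high on cold replicates 1 and 2. The same held for cold replicate 2 over the 28 probes called higher without it. These averaged 5.79 on cold replicate 2, 7.03 and 7.18 on cold replicates 1 and 3, and 5.24 to 5.47 on the warm arrays. Such a choice favours a lower value on the array left out, so these levels by themselves do not set cold replicate 3 apart.

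Without cold replicate 2, 14 of the 28 probes called higher had passed only through the cold Treg group. Of the other 14, 9 were above the warm mean on cold replicate 2 (43.3% of the probes that passed through another group), 6 above all warm arrays (22.7%) and 3 over 2-fold above the warm mean (3.26%), with a median of 0.117 log2 units. Without cold replicate 1, 2 of the 8 called higher were set aside in the same way, and 4 of the other 6 were above all warm arrays on cold replicate 1 (20%), 1 of them over 2-fold above the warm mean (4.38%). Without warm replicates 1, 2 and 3, 9, 9 and 6 probes were called higher, and 0 of them had passed only through the warm Treg group. On the warm array left out, 6, 8 and 6 of these were below every cold array. This held for 24.8%, 19.8% and 19.7% of the probes that passed through another group. Few probes were called lower in these fits. The 2 called lower without cold replicate 1, the 2 without cold replicate 2 and 2 of the 3 without cold replicate 3 were below every warm array on the array left out, against 40.3%, 29.1% and 29.3% of the probes that passed through another group. Of the 2, 5 and 2 called lower without warm replicates 1, 2 and 3, 1, 2 and 2 had passed only through the warm Treg group, and of the rest 1 of 1 and 1 of 3 were above every cold array on the array left out of the first 2 fits (28.1% and 26.1%).

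Probes that distinguish splenic Treg from Tconv cells had medians near 0 between cold and warm BAT Treg cells. The 103 probes higher in splenic Treg cells had a median difference of -0.04 log2 units, beside -0.04 over all tested probes, and 0 of them were called (0.0862% of all tested probes), with 2 (1.94%) at an unadjusted p-value under 0.05 in the limma fit, against 5.98% of all tested probes. Their mean log2 signal was 7.65 ± 0.02 in warm and 7.63 ± 0.06 in cold Treg cells (SD, n = 3 each), and 7.07 to 7.22 on the BAT Tconv arrays. The 59 probes lower in splenic Treg cells had a median of -0.01 and 0 calls, with 10 (16.9%) at an unadjusted p-value under 0.05 in the limma fit, 4 higher and 6 lower, against the same 5.98%. Scaling the arrays to a common median in place of quantiles gave medians of 0.11 and 0.01 for these sets, so neither has a settled direction.

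Probes higher in BAT than in spleen were taken from the Tconv arrays, which share no array with the Treg comparison. BAT and spleen lay on different BeadChips, and the warm BAT Tconv arrays shared theirs with the warm Treg arrays, so tissue and BeadChip cannot be told apart in these sets. The 331 probes called higher in warm BAT than in splenic Tconv cells had a median difference of -0.15 log2 units between cold and warm Treg cells, with 123 of 331 (37.2%) higher in the cold against 43.7% of all tested probes. None was called, against 0.0862% of all tested probes. At an unadjusted p-value under 0.05 in the limma fit, 7 (2.11%) were higher and 22 (6.65%) lower, against 3.24% and 2.75% of all tested probes. Their mean log2 signal was 7.70 ± 0.06 in warm and 7.55 ± 0.06 in cold Treg cells (SD, n = 3 each), and the 2 groups did not overlap. With scaling to the median the set's median was -0.02. The 161 probes called higher in cold BAT than in splenic Tconv cells had a median of -0.000652 and 0 calls. At the same unadjusted limit 2 of them (1.24%) were higher and 9 (5.59%) lower. Of the 132 probes called lower in warm BAT than in splenic Tconv cells, 13 (9.85%) were higher and 0 lower, with a median of 0.05. Of the 41 called lower in cold BAT, 5 (12.2%) were higher and 2 (4.88%) lower, with a median of 0.02.

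Probes that moved in Tconv cells of the same tissue tended to move the same way in Treg cells. The Tconv comparison had only 1 call of its own (0.00575% of tested probes), so probes were taken at an unadjusted p-value under 0.05 and over 2-fold there, 35 higher and 90 lower in cold Tconv cells. In Treg cells, 28 of the 35 (80.0%, against 43.7% of all tested probes) were higher in the cold, with a median of 0.62 log2 units, and 9 (25.7%, against 1.46% of all) were over 2-fold higher. Of the 90, 29 (32.2%, against 43.7% of all tested probes) were higher in cold Treg cells and 61 lower, with a median of -0.32. Over 2-fold lower were 8 of the 90 (8.89%, against 1.45% of all). None of the 125 probes was called in Treg cells, where 0.0862% of all tested probes were. The 35 averaged 6.79, 7.16 and 7.17 on the warm and 7.90, 7.93 and 7.33 on the cold Treg arrays, so that the cold arrays were all above the warm ones, with replicate 3 the closest. The medians kept their sign in each alternative fit that held all probes of the set, between 0.43 and 1.06 for the 35 and between -0.39 and -0.16 for the 90. Treg and Tconv arrays of 1 temperature lay on the same BeadChip, so the part of the BeadChip in this likeness cannot be told apart from that of temperature.

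Among probes higher in the cold, the bright ones were more alike in the 2 cell types than the rest. Across all 17395 tested probes the correlation of the Treg with the Tconv difference was 0.142, and across the 1401 probes with a mean log2 signal over 8 it was 0.379, as descriptions over probes that share BeadChips. The 23 bright probes over 2-fold higher in cold Treg cells had a median of 0.53 log2 units in Tconv cells, against 0.09 for all 254. On the lower side the medians were the same, -0.20 for the 29 bright probes and for all 253.

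The called probes themselves moved little in Tconv cells. Over the 13 called higher in cold Treg cells, the cold minus warm difference in Tconv cells ran from -0.63 to 0.92 log2 units with a median of 0.08, and none was over 2-fold. A single one of the 13 had an unadjusted p-value under 0.05 in the limma fit of the Tconv comparison, against 4.37% of all tested probes, and it was the one at -0.63, opposite to its Treg difference. ILMN_1232642 and ILMN_2680038 differed by -0.06 and -0.03 in Tconv cells.

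The difference between the responses of the 2 cell types was tested as an interaction, which compares them within each BeadChip and treats all arrays as independent. No probe was called in it by limma, 687 (3.95%) had an unadjusted p-value under 0.05, and the smallest adjusted p-value was 0.101. The 15 probes called in Treg cells all had the larger response there, with adjusted p-values in the interaction from 0.101 to 0.9995 by limma, but they had been chosen for their Treg response. For ILMN_1227666 the responses differed by 2.74 log2 units (SE 0.40, adjusted p = 0.101 by limma) and for ILMN_3160750 by 1.40 (SE 0.23, adjusted p = 0.117 by limma).

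**Figure D5:**
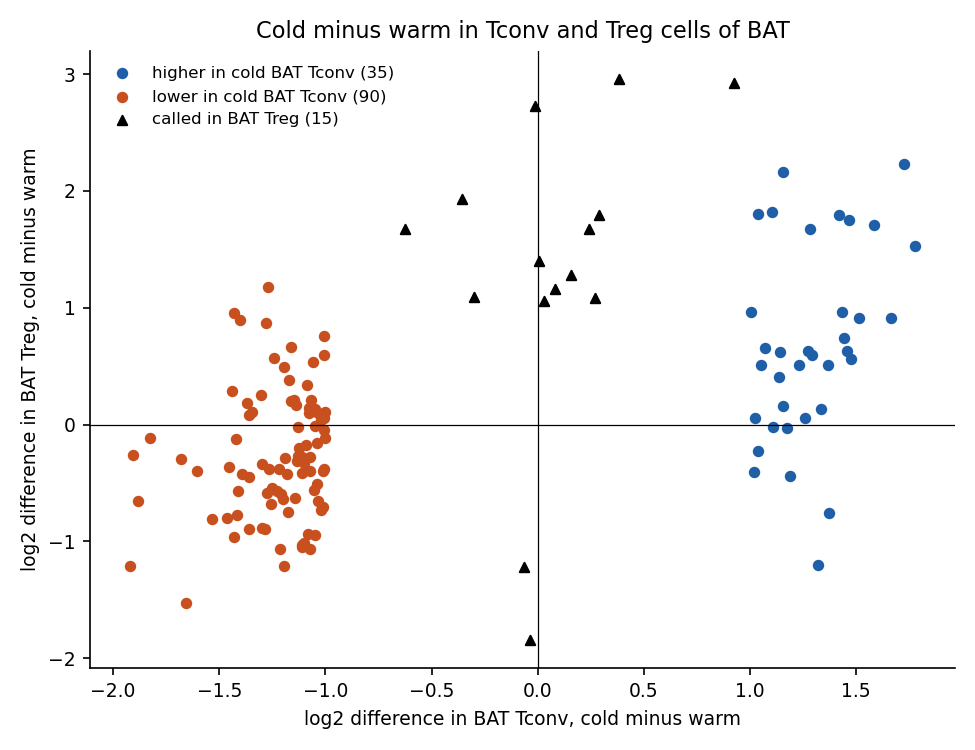
The cold minus warm log2 difference in BAT Tconv cells (horizontal axis) and in BAT Treg cells (vertical axis) for the 35 probes higher (blue) and the 90 lower (orange) in cold Tconv cells, which were chosen on the horizontal axis, and for the 15 probes called in Treg cells (black triangles), chosen on the vertical axis. Of the blue points 28 lie above 0 on the vertical axis and of the orange ones 61 below, while the triangles lie within 0.92 of 0 on the horizontal axis. Of all tested probes, 43.7% were above 0 in Treg cells.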

How the data were processed

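The authors deposited the intensity of each probe on each array as the mean over its beads, without normalization per the file headers. Detection p-values were deposited beside them, and how they were calculated is not given in the sources used here. The SD over beads and the numbers of beads gave the bead errors. Another 36 columns, which count outlying and bad beads, were not used. Columns were matched to samples by the headers.

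Signals were processed in R 4.3.3 with limma 3.58.1. The neqc function used the 936 negative controls for background correction with an offset of 16, followed by quantile normalization over the 18 arrays and log2. From the 45267 regular probes, 17395 were tested, namely those detected (p-value under 0.05) in each of the 3 samples of any of the 6 groups. The model had 1 mean per group and 12 residual degrees of freedom, and p-values were adjusted by Benjamini-Hochberg over the tested probes. The 34 other control probes served only as a check. The fit was tested on simulated data. The study's methods give a t-test for its experimental data in general, and name no normalization and no test for these arrays in particular. Replicate numbers were not used to pair cold with warm Treg arrays, whose deviations at the same number correlated by 0.01 to 0.03. Whether Treg and Tconv arrays of the same number came from the same pool is not stated in the sources used here. Their deviations were not compared, and the fit treats them as independent.

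The probes named are the 2 called higher with the largest moderated t and the 2 called lower, because the table holds 0 gene names. The gene and marker lists planned could not be applied, and an annotation of the array and its probe sequences were not used here. For a bound, undetected signals were set to the lowest detected signal of the array. Members, probe sets and lists were chosen with earlier results of these data known. The alternatives were other background corrections, scalings, filters and sets of arrays, array weights, a replicate block and the methods' t-test, and the probe sets were added after seeing the data. Python 3.11.15 and matplotlib 3.10.9 drew the figures.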

Additional observations from a re-analysis of the deposited data

How the results depend on the processing

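The count of 15 probes called between cold and warm BAT Treg cells moved with most choices, and the cause was not tested. It was 2 with no background correction, 9 with an offset of 50, 42 (31 higher and 11 lower) with scaling to the median, 9 with no filter, 12 with detection p-values under 0.01, and 8 with probes above the 95th percentile of the negative controls. It was 6 in a fit of the 12 BAT arrays, 54 with array weights, which gave cold replicate 3 the lowest weight of the 6 Treg arrays, 0.668, and cold replicate 2 the highest, 2.06, and 0 in a fit of the 6 Treg arrays alone, where 1139 probes had an unadjusted p-value under 0.05 by limma and the smallest adjusted p-value was 0.361. The methods' t-test, unadjusted, gave 150 on background-corrected log2 signals and 16 on linear signals without background correction. It gave 0 on either after Benjamini-Hochberg adjustment. With the replicate number as a block the count was 9, and whether the numbers pair any samples is not stated. Leaving out single arrays gave 8 to 81, with 81 without cold replicate 3, 30 without cold replicate 2, 10 without cold replicate 1 and 8 without warm replicate 3. Of the 15, 14 were among the 42, 14 among the 54 and 9 among the 9 with no filter.

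The 0 calls in the difference between Treg and Tconv responses became 6 with scaling to the median and 1 with array weights, and 0 to 8 with single arrays left out, with 8 without cold Treg replicate 3 and 1 without cold Treg replicate 1, warm Treg replicate 2 or warm Tconv replicate 1. No named probe changed direction. ILMN_1227666 was called in 15 of 16 alternatives, ILMN_3160750 and ILMN_1232642 in 13, and ILMN_2680038 in 7, and none of the 4 in the fit of the 6 Treg arrays alone, where their adjusted p-values were 0.461 to 0.685 by limma. The median difference of all tested probes stayed between -0.07 and -0.02 in the alternatives run on the same probes. The 13 probes called higher had a median log2 signal of 5.34 in warm Treg cells, near the lowest detected signals, and each group had 3 arrays.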
